A study of Mus musculus with 10 samples.

Results

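Transcripts of 10 alarmin and antimicrobial protein genes were examined in mouse skin: S100a7a, S100a8, S100a9, Lcn2, Slpi, Wfdc12, Camp, Defb3, Defb4 and Defb6. They were taken by name from the 49671 gene IDs of the count files, after matching Ensembl IDs to symbols, and all 10 matched. Poly(A) RNA of whole skin had been sequenced from 10 mice, 1 library per mouse. The study compared 5 mice homozygous for the targeted allele of the B6;129S4-Npytm2Rpa/J strain (NPYtet) with 5 wildtype siblings (WT). The allele lies at the Npy gene, which encodes the neurotransmitter neuropeptide Y, and the study's title speaks of its overexpression. All mice were 22 weeks old and kept in standard conditions, the labels name no treatment, and the mixed B6 and 129S4 background was shared by both genotypes. Mice labelled female were WT replicates 1 and 3 and NPYtet replicates 1, 3 and 4, and mice labelled male were WT replicates 2, 4 and 5 and NPYtet replicates 2 and 5. The sources used here do not give the body site of the skin, and the allele is not limited to 1 cell type by the labels.

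The epidermis carries a chemical barrier beside its physical one. S100a8 and S100a9 encode the subunits of calprotectin, a heterodimer that binds calcium, zinc and manganese and, once released, acts as an alarmin on innate immune cells. Lipocalin 2 withholds iron from bacteria by binding their siderophores, Slpi and Wfdc12 belong to the whey acidic protein family of protease inhibitors, and beta-defensins and cathelicidin are cationic peptides that disrupt microbial membranes. Keratinocytes make many of these proteins at low levels in resting skin and more of them after wounding or under cytokines of the interleukin 1, 17, 22 and 36 families, while neutrophils carry calprotectin, lipocalin 2 and cathelicidin in large amounts.

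Library totals ran from 23209405 to 53357695 reads. Npy itself was higher in every NPYtet library (96.1 to 485 CPM) than in any WT library (0.0939 to 2.85 CPM), with a fitted log2 difference of 7.45 (SE 0.62, edgeR adjusted p = 0.000109). CPM are counts divided by the scaled size of the library. Epidermal markers were abundant in all libraries, with summed levels of 7128 to 17509 CPM for 10 suprabasal and 7602 to 59563 CPM for 7 basal keratinocyte genes, and 8 skeletal muscle genes summed to 3822 to 11514 CPM. Several libraries stood apart. NPYtet replicate 5 had 9.27% mitochondrial reads against 1.86 to 3.03% in the others, and together with WT replicate 2 it had the fewest genes with a read (19953 and 21144, against 24710 to 26323) and the smallest scaling factors (0.652 and 0.696). NPYtet replicate 1 was labelled female but held 2 reads of Xist and 1513 of the Y-linked Ddx3y, the pattern of the libraries labelled male. Results are therefore given by the labels, and many of them again without these 3 libraries.

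Among the S100 genes, S100a8 (chromosome 3, 90668978 to 90670035, GRCm38, plus strand) had 5.08, 277, 1.76, 44.6 and 71.7 CPM in WT replicates 1 to 5 and 2.70, 234, 1.08, 1.14 and 52.2 CPM in NPYtet replicates 1 to 5. The values formed a low and a high set in both genotypes, and the high set was the 5 libraries labelled male. S100a9, which lies beside it on the minus strand (90692632 to 90695721), had 0.567, 194, 2.70, 37.8 and 57.9 CPM in WT and 1.94, 222, 1.20, 0.892 and 28.2 CPM in NPYtet. The same 5 libraries were high for both subunits, WT replicate 2 and NPYtet replicate 2 above the rest.

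Neither calprotectin gene differed between the genotypes beyond the spread between mice. The log2 fold change, NPYtet minus WT in a fit with a term for the sex label, was -0.45 for S100a8 (SE 0.57, edgeR adjusted p = 0.9995) and 0.06 for S100a9 (SE 0.61, edgeR adjusted p = 0.9995). By the sex label both were higher in libraries labelled male. S100a8 had a mean of 136 ± 110 CPM in libraries labelled male and 2.35 ± 1.66 CPM in those labelled female (SD, n = 5 each), a log2 difference of 5.85 (SE 0.69, edgeR adjusted p = 0.00269). S100a9 had 108 ± 92.4 and 1.46 ± 0.86 CPM, a log2 difference of 6.21 (SE 0.75, edgeR adjusted p = 0.0032). No library labelled male fell to the level of any labelled female for either gene. In whole skin, fewer cells of a type and less RNA per cell cannot be told apart.

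S100a7a, which encodes a mouse relative of human psoriasin and koebnerisin, followed another pattern. It lies next to S100a8 on chromosome 3 (90654017 to 90658669, plus strand) and had 62.9, 32.5, 1.97, 41.6 and 22.3 CPM in WT replicates 1 to 5 and 0.786, 6.83, 2.26, 1.37 and 25.9 CPM in NPYtet replicates 1 to 5. WT replicate 3 lay among the low NPYtet libraries and NPYtet replicate 5 among the high WT libraries, so the genotypes overlapped. Its log2 fold change by genotype was -2.70 (SE 1.05), with an unadjusted p of 0.0299 and an edgeR adjusted p of 0.9995. The difference was -4.46 in mice labelled female (SE 1.06, edgeR adjusted p = 0.732) and -0.98 in mice labelled male (SE 1.02, edgeR adjusted p = 0.975), and the test of the difference between them gave 3.48 (SE 1.39, unadjusted p = 0.0277, edgeR adjusted p = 0.9999). Without WT replicate 1, the highest library, the log2 fold change by genotype was -0.78. By the sex label it was 1.69 (SE 1.02, edgeR adjusted p = 0.328), and without WT replicate 1 that difference was 3.67 and passed (edgeR adjusted p = 0.00112).

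Over the whole table, 1 of 18060 genes tested differed by genotype in edgeR, which was Npy (0.00554%), with 649 genes at an unadjusted p under 0.05 (3.59%). Of the 10 alarmin and antimicrobial genes, 7 had enough reads to be tested, none of the 7 was called by genotype in edgeR or in DESeq2, and 1 had an unadjusted p under 0.05, S100a7a. Without the 3 libraries that stood apart none of 8 was called by edgeR, and 4 of 8 had an unadjusted p under 0.05, against 4.35% of genes. They were Defb3 at 1.82 (SE 0.62), Slpi at 1.25 (SE 0.45), Lcn2 at 1.19 (SE 0.49) and S100a7a at -3.30 (SE 1.26), each with an edgeR adjusted p of 0.9999. In that fit S100a8 was at 0.11, S100a9 at 0.73, Wfdc12 at 0.17 and Defb6 at -0.24 by genotype. Its only NPYtet library labelled male was NPYtet replicate 2. Leaving out that library alone gave Lcn2 at -0.03, Slpi at 0.04, Defb3 at 0.46 and S100a7a at -2.625. Defb3, Slpi and Lcn2 were high in the same libraries, so they are not independent counts. The fit without the 3 libraries did not call Npy either (7.45, edgeR adjusted p = 0.133), so its lack of calls carries little weight. Camp, Defb4 and Wfdc12 had 24, 63 and 181 reads in the 10 libraries together and did not pass the filter on low counts. The difference of the genotype effect between mice labelled male and female was called for 0 of 18060 genes in edgeR, with 294 at an unadjusted p under 0.05 (1.63%), S100a7a being the 1 gene of the 7 among them.

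**Figure D1:**
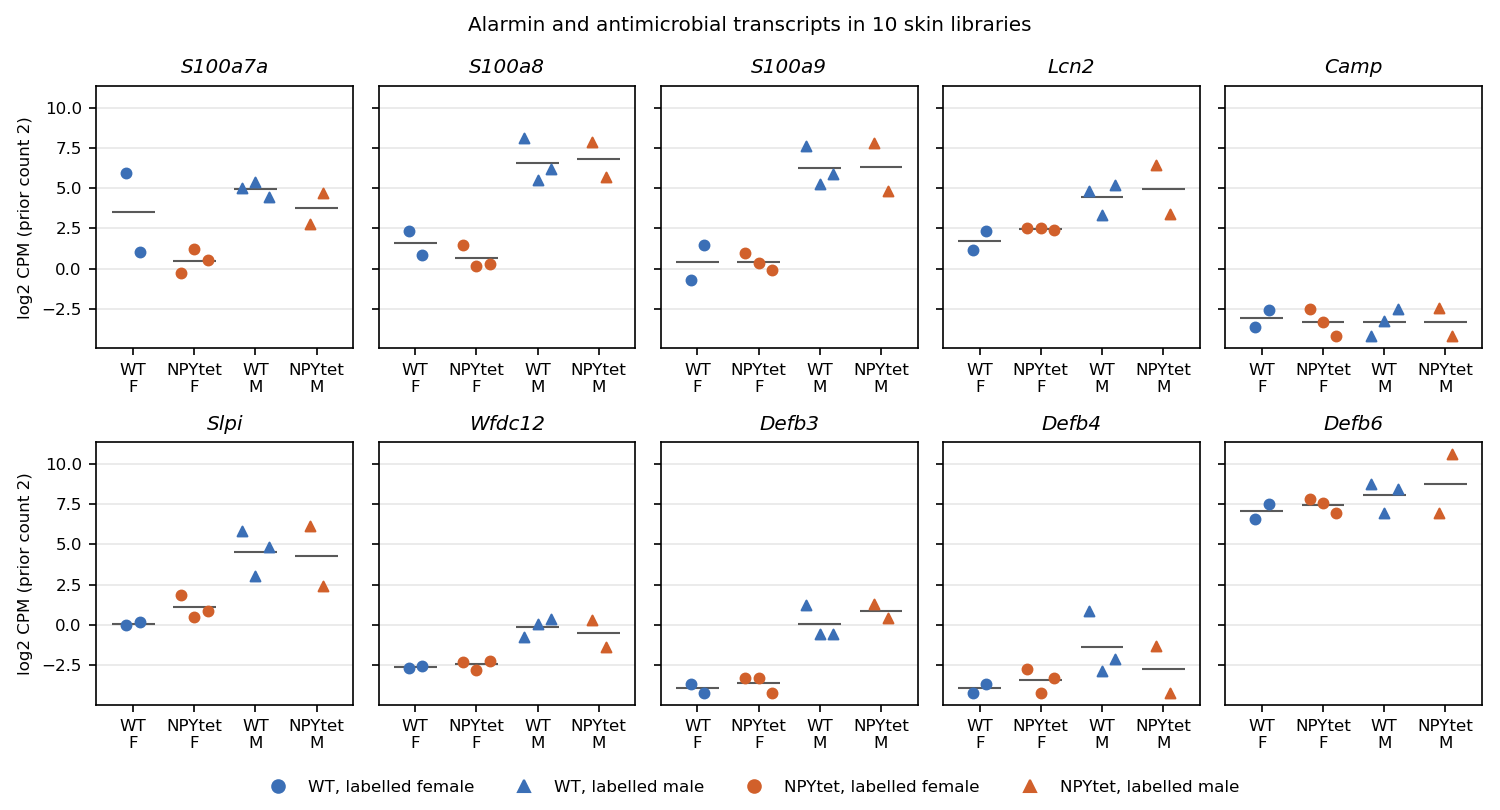
Log2 CPM (y axis, prior count of 2) of the 10 genes in each library, grouped on the x axis by genotype and sex label, with circles for mice labelled female, triangles for mice labelled male and a line at each mean. The 5 triangles lie above the 5 circles for S100a8, S100a9, Lcn2, Slpi, Wfdc12 and Defb3, while S100a7a, Camp, Defb4 and Defb6 overlap.

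Lcn2, the iron-withholding lipocalin (chromosome 2, 32384633 to 32388252, minus strand), had 2.17, 27.9, 5.03, 10.2 and 36.9 CPM in WT replicates 1 to 5. In NPYtet replicates 1 to 5 it had 5.70, 88.5, 5.67, 5.33 and 10.4 CPM. NPYtet replicate 2 was the highest library of all, and the 3 NPYtet libraries labelled female all lay between 5.33 and 5.70 CPM. The log2 fold change by genotype was 0.81 (SE 0.50, edgeR adjusted p = 0.9995), and without NPYtet replicate 2 it was -0.03. Libraries labelled male had 34.8 ± 32.2 CPM against 4.78 ± 1.49 CPM (SD, n = 5 each), a log2 difference of 2.97 (SE 0.53, edgeR adjusted p = 0.013). The groups did not overlap, with 10.2 CPM the lowest value in mice labelled male and 5.70 CPM the highest in mice labelled female. Without NPYtet replicate 2 the sex difference was 2.15 (edgeR adjusted p = 0.0536).

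Slpi, the secretory leukocyte protease inhibitor that restrains neutrophil elastase, had 0.954, 56.0, 1.06, 8.20 and 28.1 CPM in WT replicates 1 to 5. In NPYtet replicates 1 to 5 it had 3.64, 69.7, 1.36, 1.81 and 5.29 CPM. Libraries labelled male were again the higher ones, though NPYtet replicate 5, at 5.29 CPM, was close to the 3.64 CPM of NPYtet replicate 1, the highest of those labelled female. The log2 fold change by genotype was 0.71 (SE 0.65, edgeR adjusted p = 0.9995) and by sex label 4.48 (SE 0.72, edgeR adjusted p = 0.00922). Without WT replicate 3 or NPYtet replicate 2 the sex difference was 4.38 or 3.82 (edgeR adjusted p = 0.0528 and 0.0556).

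Wfdc12, a small whey acidic protein inhibitor on the same chromosome as Slpi, was near the limit of detection. It had 4, 10, 5, 61 and 41 reads in WT replicates 1 to 5 and 6, 38, 4, 7 and 5 reads in NPYtet replicates 1 to 5. In CPM, mice labelled male had 0.330 to 1.22 and mice labelled female 0.0921 to 0.160, without overlap. A count of 3 reads is worth between 0.0496 and 0.198 CPM in these libraries and is what a count of 0 still allows, a limit that covers counting error only. Wfdc12 passed the filter in the fit without the 3 libraries that stood apart, where it was at 3.30 by sex label (SE 0.37, edgeR adjusted p = 0.005). It also passed the filter in 6 fits that left out a single library, and in 3 of these it was not called: edgeR adjusted p was 0.0966 without WT replicate 3, 0.0654 without replicate 3 of NPYtet and 0.0584 without its replicate 4.

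The beta-defensins Defb4, Defb6 and Defb3 lie in 1 cluster on chromosome 8, at 19198706 to 19201545, 19225478 to 19228209 and 19293360 to 19295291 (plus strand). They belong to a family of similar genes, and the sources used here do not say how reads that match several copies were counted, so their counts are less certain than those of the other genes. Defb6 and Defb3 are shown first by the sequence upstream of their starts, because these stretches are nearly alike while their transcript levels were far apart. The lines below are from the RefSeq promoter windows of GRCm38.p6, Defb3 at chr8:19293111-19293345 and Defb6 at chr8:19225251-19225477, both on the plus strand and read 5′ to 3′ up to the base before or shortly before the annotated start. Capitals mark bases that differ between them.
Defb3: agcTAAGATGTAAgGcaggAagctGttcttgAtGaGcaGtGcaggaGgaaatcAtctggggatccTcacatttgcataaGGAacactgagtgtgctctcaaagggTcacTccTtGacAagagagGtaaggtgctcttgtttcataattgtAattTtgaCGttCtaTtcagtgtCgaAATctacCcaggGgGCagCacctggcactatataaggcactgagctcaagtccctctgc
Defb6: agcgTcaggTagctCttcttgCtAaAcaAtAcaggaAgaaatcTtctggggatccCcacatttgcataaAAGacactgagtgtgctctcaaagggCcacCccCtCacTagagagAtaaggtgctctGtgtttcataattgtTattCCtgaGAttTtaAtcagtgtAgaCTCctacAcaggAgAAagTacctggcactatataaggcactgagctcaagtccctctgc
The 235 and 227 bases were the same in 190 of 237 aligned columns (80.2%, with 12 columns of gaps), and the last stretch of both, which holds tatataa, was identical. Over the whole windows of 250 bases before the start, Defb3 and Defb6 were 72.5% identical, and every other pair of the 9 matched genes was between 42.9 and 50.9%. Defb4 was not matched in the RefSeq table.

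Defb6 was the most abundant of the 10 genes in 9 of 10 libraries when levels were set per kilobase of exon. It had 97.5, 441, 181, 126 and 353 CPM in WT replicates 1 to 5 and 223, 123, 190, 124 and 1564 CPM in NPYtet replicates 1 to 5. NPYtet replicate 5 held more than all other libraries, and the remaining 9 lay within 97.5 to 441 CPM in both genotypes. The log2 fold change was 0.91 by genotype (SE 0.55, edgeR adjusted p = 0.9995), or -0.19 without NPYtet replicate 5. By sex label it was 1.69 (SE 0.56, edgeR adjusted p = 0.102), and the groups overlapped. It passed by sex label in DESeq2 (1.77, DESeq2 adjusted p = 0.0196, in a fit that called 2316 genes) and in edgeR without WT replicate 4 (1.91, adjusted p = 0.0388) or NPYtet replicate 2 (1.97, adjusted p = 0.0451). Without NPYtet replicate 5 the sex difference was 0.60 (edgeR adjusted p = 0.481), and without the 3 libraries that stood apart it was 0.39 (edgeR adjusted p = 0.588).

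Defb3, whose peptide is a mouse relative of the inducible human beta-defensins, had 1, 44, 0, 37 and 21 reads in WT replicates 1 to 5. In NPYtet replicates 1 to 5 it had 2, 76, 2, 0 and 20 reads. The 5 libraries labelled male held 20 reads or more and the 5 labelled female at most 2. As CPM these were 1.46 ± 0.88 and 0.0242 ± 0.0238 (SD, n = 5 each), or 5.91 on the log2 scale by sex label (SE 0.76, edgeR adjusted p = 0.0032). By genotype it was 0.78 (SE 0.68, edgeR adjusted p = 0.9995). Of the 2 defensins with the alike upstream stretch, Defb3 was called by sex label and Defb6 was not. Whether their fold changes differ was not tested.

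Defb4 had 0, 34, 1, 5 and 6 reads in WT replicates 1 to 5 and 4, 11, 0, 2 and 0 reads in NPYtet replicates 1 to 5. WT replicate 2 held most of them, and the sex labels overlapped because NPYtet replicate 5 had none. Camp, which encodes the single mouse cathelicidin, had at most 5 reads in any library and 0 in 3 of them. Its mean CPM was 0.0623 ± 0.0538 over WT and 0.0592 ± 0.0629 over NPYtet mice (SD, n = 5 each). In 6 of 10 libraries it had at most 3 reads, and no difference was detectable at this depth.

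By the sex label, 5 of the 7 tested genes were called in edgeR and all 5 were higher in mice labelled male: S100a8, S100a9, Lcn2, Slpi and Defb3. Over all genes 1.36% were called higher, and 2.48% in either direction. All 7 had positive fold changes, with a median log2 fold change of 4.48, against a median of -0.07 and 46.2% positive over the 18060 genes. The groups did not overlap for 6 of the 10 genes, the 5 named and Wfdc12, while 3.06% of tested genes were higher without overlap. With the 3 libraries that stood apart left out together, 8 genes could be tested and 6 were called higher by sex label, the same 5 and Wfdc12, against 2.53% of genes.

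**Figure D2:**
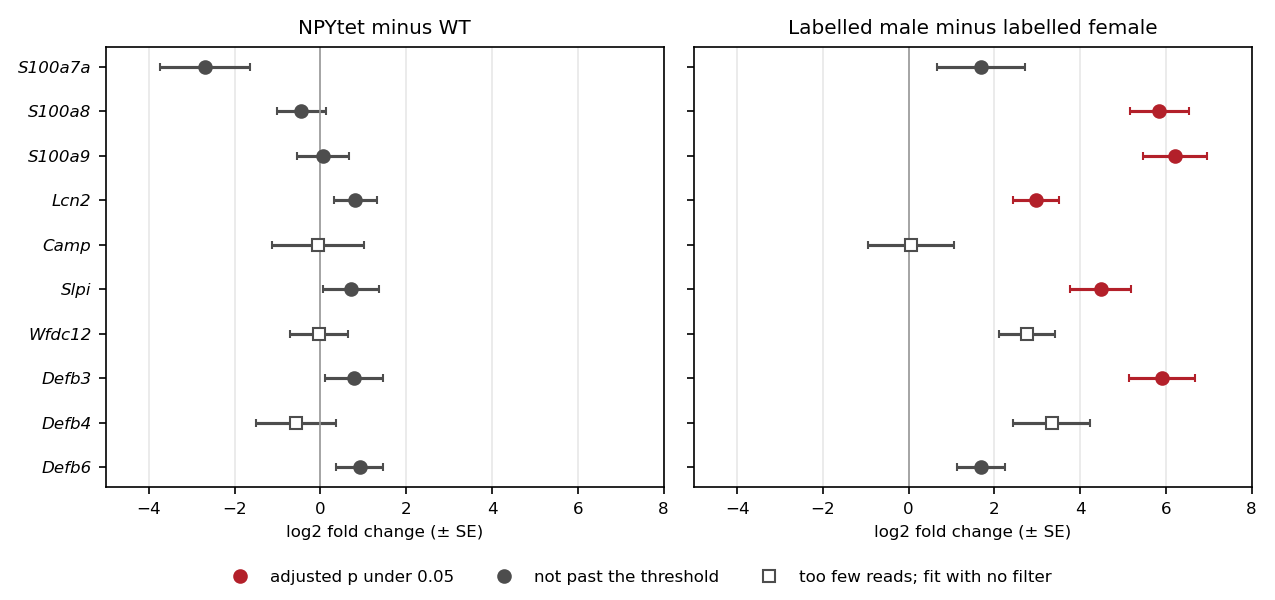
Log2 fold change with its SE (x axis) of each gene for NPYtet minus WT (left) and mice labelled male minus mice labelled female (right), from edgeR, with filled points for tested genes and open squares for the 3 genes with too few reads, taken from the fit without a filter on low counts, where Defb4 and Wfdc12 passed by sex label in a fit that called 2380 genes. No tested gene passed by genotype, and S100a8, S100a9, Lcn2, Slpi and Defb3, drawn in red, passed by sex label at 2.97 to 6.21.

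Within each genotype the direction was the same for these 5 genes. Fold changes by sex label in WT and in NPYtet were 5.26 and 6.44 for S100a8, 5.88 and 6.54 for S100a9, 2.79 and 3.15 for Lcn2, 4.93 and 4.05 for Slpi, and 6.20 and 5.76 for Defb3, on the log2 scale. With 5 libraries in each comparison, S100a8 in NPYtet was the 1 value of these 10 past the threshold (edgeR adjusted p = 0.0407), where 0.0221% of genes were called higher in NPYtet and 0% in WT. The others had edgeR adjusted p-values between 0.0718 and 0.384. NPYtet replicate 1, labelled female despite its Y-linked reads, had 2.70 CPM of S100a8, 1.94 of S100a9, 5.70 of Lcn2 and 3.64 of Slpi. Its S100a8 and S100a9 were within the range of the other libraries labelled female, and its Slpi was above that range. Its Lcn2 was level with the top of that range, 5.67 CPM in NPYtet replicate 3. Both Lcn2 and Slpi were below every library labelled male. For these genes a library with Y-linked reads thus lay with the low set, so the contrast is between labels, and whether it is one of sex was not tested.

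Upstream sequence was compared next for every gene with a RefSeq window, those high in the same libraries and also S100a7a, Camp and Defb6. Of the 10 genes, 9 had a RefSeq promoter window of 250 bases before and 50 after the RefSeq start, and 4 motifs were searched on both strands. The C/EBP motif TTGCNNAA was found in 6 of 9 windows (Lcn2, Slpi, Wfdc12, S100a9, Defb3 and Defb6), against 10.8% of 32851 windows. S100a8, S100a7a and Camp had no match to it. Defb3 and Defb6 share a match within their alike stretch, so the 6 are not independent counts. The STAT motif TTCNNNGAA was found in 1, that of S100a7a, against 8.3% of windows. AP-1 (TGANTCA) and NF-kB (GGG and TTTCC with any bases at the 2 positions between them) had no match in the 9, against 7.81 and 1.63% of windows. No match overlapped that of another motif, and a match describes letters only. The 250 bases before the start are printed for S100a9 (chr3:90695722-90695971) and Slpi (chr2:164356508-164356757), a calprotectin subunit and a protease inhibitor called by sex label, both in GRCm38.p6 and written along the minus strand on which the genes lie. Capitals mark the C/EBP match, which in Slpi lies on the strand opposite to the gene.
S100a9: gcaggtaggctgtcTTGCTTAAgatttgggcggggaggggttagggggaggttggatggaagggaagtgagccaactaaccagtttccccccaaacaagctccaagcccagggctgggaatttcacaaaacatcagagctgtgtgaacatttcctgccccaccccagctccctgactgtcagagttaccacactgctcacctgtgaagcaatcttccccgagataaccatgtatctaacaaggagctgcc
Slpi: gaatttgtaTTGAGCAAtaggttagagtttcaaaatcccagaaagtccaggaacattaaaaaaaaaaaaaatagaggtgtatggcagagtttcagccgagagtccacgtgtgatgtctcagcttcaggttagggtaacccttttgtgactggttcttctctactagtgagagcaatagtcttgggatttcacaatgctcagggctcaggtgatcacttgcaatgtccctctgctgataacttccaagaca
Both matches lie far upstream in the window, from -236 to -229 in S100a9 and from -241 to -234 in Slpi, counted from the RefSeq start. In GENCODE M21 the Slpi gene spans 164354070 to 164389095, so its window lies inside that span and not before its GENCODE start. In Defb3 and Defb6 the shared match TTGCATAA, visible above as ttgcataa, lies at -179 to -172 and at -166 to -159, and Defb6 has another at -209 to -202. Neither the S100a9 nor the Slpi window overlaps an annotated exon. Of the other windows with a C/EBP match, annotated exons covered 197 of the 250 bases in Lcn2, 50 in Wfdc12, 1 in Defb3 and 0 in Defb6.

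The proportion of the calprotectin subunits did not differ between the genotypes beyond the spread between mice. S100a9 made up 10.05, 41.2, 60.5, 45.9 and 44.7% of the reads of both genes in WT replicates 1 to 5. In NPYtet replicates 1 to 5 it made up 41.8, 48.7, 52.5, 43.8 and 35.1%. The means were 40.5 ± 18.5% in WT and 44.4 ± 6.67% in NPYtet (SD, n = 5 each), a difference of 3.91 percentage points (two-sided exact permutation test, p = 0.770, with 0.00794 the smallest p the design allows). WT replicate 1 had 22 S100a9 reads beside 197 of S100a8 (95% exact binomial interval 6.40 to 14.8%, counting error only), below every other library. Without it the difference was -3.70 percentage points. The share was 43.1 ± 5.22% in libraries labelled male and 41.7 ± 19.2% in those labelled female (exact permutation p = 0.913).

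Set per kilobase of exon, the mean levels over the 10 libraries were 1060 CPM per kb for Defb6, 105 for S100a9, 99.5 for S100a8, 14.9 for Slpi, 14.4 for S100a7a, 7.54 for Lcn2, 2.70 for Defb3, 0.634 for Wfdc12, 0.567 for Defb4 and 0.0801 for Camp. Some neighbours in this order could not be told apart. S100a9 was above S100a8 in 6 of 10 libraries, Slpi above S100a7a in 5, S100a7a above Lcn2 in 5, Defb3 above Wfdc12 in 6 and Defb4 above Camp in 6. S100a8 was above Slpi in 10 of 10, Lcn2 above Defb3 in 9 and Wfdc12 above Defb4 in 8. In mice labelled female Defb6 stood alone at 505 ± 159 CPM per kb, with S100a8 at 3.39 ± 2.39 and S100a9 at 2.80 ± 1.65. In mice labelled male it was 1614 ± 1855, beside 196 ± 159 and 207 ± 177 (SD, n = 5 each).

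**Figure D3:**
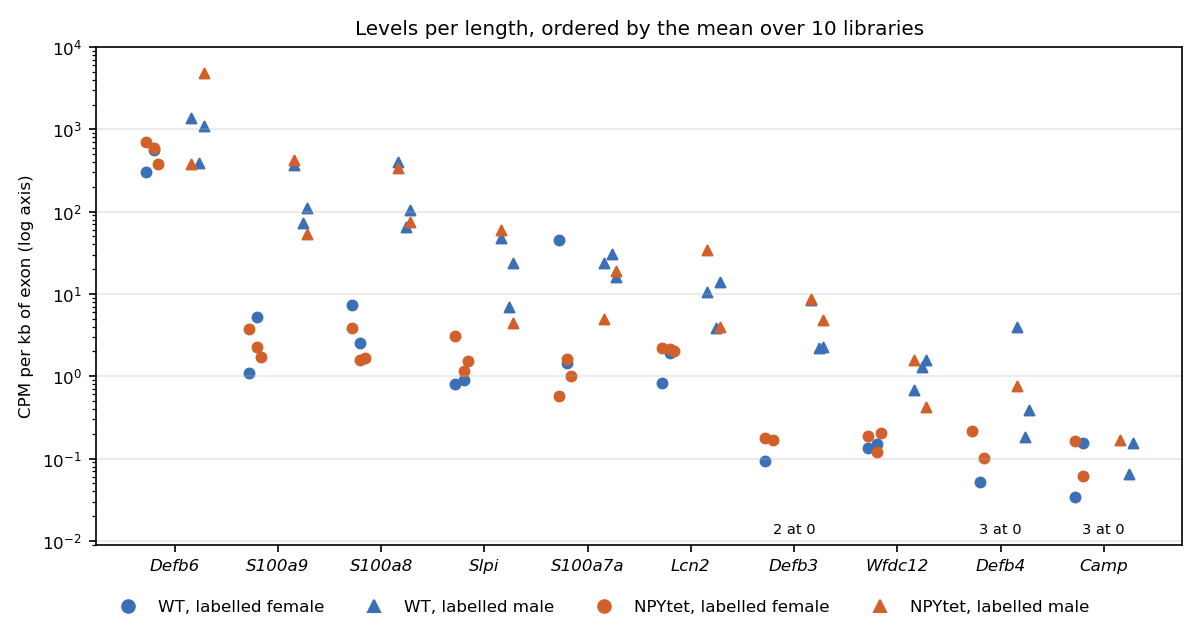
CPM per kilobase of exon (y axis, log scale) in each of 10 libraries for the 10 genes, ordered on the x axis by their mean, with libraries at 0 counted at the foot of the axis. Defb6 lies between 302 and 4841 CPM per kb, and S100a8 and S100a9 form a low and a high set on either side of about 10.

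Genes that act upstream of these proteins were read from a list of 20 cytokines, cytokine receptors and transcription factors that induce them, of which 16 were tested. By genotype 0 of 16 were called in edgeR and 0 had an unadjusted p under 0.05 (median log2 fold change 0.31, against -0.01 over all genes). The smallest p-values were those of the interleukin 36 gene Il1f9 at 0.75 (SE 0.39), of Il1a, an epidermal alarmin cytokine, at 0.78 (SE 0.44), and of Il1f8 at 0.45 (SE 0.35). Without the 3 libraries that stood apart 0 of 16 were called by genotype. In that fit the cytokine genes Tnf at 0.89 (SE 0.38) and Osm at 1.47 (SE 0.64) had an unadjusted p under 0.05. By sex label 7 of 16 were called, all higher in mice labelled male, and 15 of 16 were positive (median 1.32). Il6 was highest at 4.49 (SE 0.71, edgeR adjusted p = 0.00751), with 1.19 to 15.1 CPM in libraries labelled male and 0.0921 to 0.352 CPM in the others. The interleukin 1 gene Il1b was at 2.71, Osm, an interleukin 6 family cytokine, at 2.94, the interleukin 36 genes Il1f6 and Il1f8 at 2.57 and 1.95, and the transcription factors Cebpd and Cebpb, which bind C/EBP motifs, at 2.37 and 1.78. Without the 3 libraries that stood apart 7 of 16 were called higher, among them Il6, Il1b, Il1f8 and Cebpd, while Il1f6, Osm and Cebpb were not called. Il17a had no read in any library, Il22 had at most 1 and Il17f at most 9, which sets the limit of what these libraries can show of those cytokines.

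Receptors for alarmins and antimicrobial peptides gave 0 of 11 tested genes called by genotype in edgeR, with 3 at an unadjusted p under 0.05, all positive, against 3.59% of all genes. They were the scavenger receptor Cd36 at 1.14 (SE 0.45), the chemokine receptor Ccr2 at 0.96 (SE 0.39) and Tlr4, the toll-like receptor through which calprotectin signals, at 0.76 (SE 0.31). NPYtet replicate 5 was the highest library for Cd36 and Ccr2, at 904 and 76.1 CPM. Without the 3 libraries that stood apart Cd36 was at 0.80 (SE 0.39), Ccr2 at 0.58 (SE 0.30) and Tlr4 at 0.64 (SE 0.31) by genotype. None of them then had an unadjusted p under 0.05. By sex label 1 of 11 was called, the formyl peptide receptor Fpr2, at 2.96 (SE 0.51, edgeR adjusted p = 0.0107). In the fit that left out the 3 libraries that stood apart, Fpr2 was called higher and Ccr2 lower (-1.44, edgeR adjusted p = 0.0413) in mice labelled male.

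Other antimicrobial proteins were called by genotype in 0 of 14 tested genes in edgeR, with 2 positive at an unadjusted p under 0.05, Lyz1 at 1.10 (SE 0.45) and Wfdc21 at 1.37 (SE 0.60), and Wfdc5 next at 0.58 (SE 0.29). Wfdc21 had 617 CPM in NPYtet replicate 5 and 31.0 to 103 CPM elsewhere. Without the 3 libraries that stood apart 0 of 16 were called by genotype, with Wfdc21 at 0.08 (SE 0.48) and Lyz1 at 0.50 (SE 0.29). In that fit Saa1 at 2.49 (SE 0.64), Defb14 at 1.29 (SE 0.35) and Wfdc2 at 2.46 (SE 0.95) had an unadjusted p under 0.05, against 4.35% of genes. By sex label 3 were higher and 1 lower in mice labelled male. The acute-phase gene Saa3 was at 6.45 (SE 1.34), the chitinase-like Chil1 at 4.18 (SE 0.67) and the beta-defensin Defb14 at 3.04 (SE 0.51), while the lysozyme gene Lyz1 was at -2.09 (SE 0.46). Defb14 had 1.79 to 9.03 CPM in libraries labelled male and 0.335 to 0.934 CPM in those labelled female, the same division as Defb3. Without the 3 libraries that stood apart Chil1, Defb14 and Lyz1 were called in the same directions, Saa1 was called higher (4.08, edgeR adjusted p = 0.0153) and Saa3 was not called. Of 10 other S100 genes tested, 0 were called in either contrast by edgeR, with 0 by genotype and 8 by sex label at an unadjusted p under 0.05, which 24.6% of all genes had by sex label. S100a4, S100a11 and S100a3 had the smallest p by genotype, at 1.02 (SE 0.58), 0.48 (SE 0.30) and -3.58 (SE 2.32).

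Epidermal kallikreins, proteases of which some process cathelicidin, gave with their inhibitor Spink5 no call by genotype among 10 tested genes in edgeR, with 1 at an unadjusted p under 0.05, Klk14 at -1.13 (SE 0.48). Klk13 and Spink5 came next, at -1.16 (SE 0.56) and 0.68 (SE 0.43). By sex label 2 of 10 were called higher, Klk6 at 3.98 (SE 0.61) and Klk13 at 2.998 (SE 0.59). When the 3 libraries that stood apart were left out, Klk6 was called and Klk13 was not (3.10, edgeR adjusted p = 0.0718). Klk6 had 72.2 to 562 CPM in libraries labelled male and 9.04 to 26.7 CPM in those labelled female.

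Markers of keratinocytes and of other cells that moved with these genes are given beside them. Stress keratins, which wounded and inflamed epidermis makes, followed the sex label: 3 of 4 were called higher, Krt16 at 6.46 (SE 0.88, edgeR adjusted p = 0.0047), Krt6a at 4.66 (SE 0.68) and Krt17 at 2.34 (SE 0.53). Their summed level was 3965 to 37716 CPM in mice labelled male and 1180 to 2485 CPM in mice labelled female, with none at 0 reads in any library. By genotype the sums were 1719 to 37716 CPM in WT and 1180 to 14917 CPM in NPYtet, and 0 of 4 were called in edgeR, with 0 at an unadjusted p under 0.05. Krt6a, Krt17 and Krt16 were at -0.77 (SE 0.59), -0.29 (SE 0.50) and -0.35 (SE 0.74). Without the 3 libraries that stood apart, Krt16, Krt6a and Krt6b were called by sex label and Krt17 was not (1.46, edgeR adjusted p = 0.0731). The part of the stress keratins in the pattern of S100a8, S100a9, Lcn2, Slpi and Defb3 was not tested.

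Neutrophil markers moved in part. By sex label 3 of 9 tested were called higher, the chemokine receptor Cxcr2 at 5.08 (SE 0.92), the collagenase Mmp8 at 3.34 (SE 0.62) and Retnlg at 3.05 (SE 0.67). At an unadjusted p under 0.05, 4 of the 9 were higher and 2 lower, where 24.6% of all genes passed in either direction. Without the 3 libraries that stood apart 4 of 11 were called higher, Cxcr2, Mmp8, Trem1 and Fpr1, and Retnlg was not. In that fit 9 of 11 were positive, while Ltf at -4.39 (SE 1.10) and Prtn3 at -1.38 (SE 0.40) were negative and not called. The summed level of the 15 markers was 38.8 to 267 CPM in mice labelled male and 33.5 to 75.1 CPM in mice labelled female, so the groups overlapped, and by genotype it was 33.5 to 267 CPM in WT and 38.8 to 232 CPM in NPYtet. The gene Mmp9 held the largest part of this sum in every library. It had 219 CPM in WT replicate 2, 131 in NPYtet replicate 2 and 62.0 in NPYtet replicate 1, the highest library labelled female. The sum thus follows mainly 1 of the 15 markers. Ly6g, the defining surface marker, had 0 reads in 6 libraries and at most 14 in any, and the granule gene Ngp 0 reads in 6 and at most 3. The 3 libraries highest in S100a8, WT replicate 2, NPYtet replicate 2 and WT replicate 5, also had the highest marker sums, 267, 232 and 122 CPM. Below them the order differed: NPYtet replicate 5 and WT replicate 4 had 52.2 and 44.6 CPM of S100a8 with marker sums of 38.8 and 47.2 CPM, while the libraries labelled female reached a sum of 75.1 CPM with at most 5.08 CPM of S100a8. By genotype 0 of 9 were called in edgeR, with 1 at an unadjusted p under 0.05, Mpo at 2.004 (SE 0.84), followed by Ltf at 2.05 (SE 1.304) and Prtn3 at -0.70 (SE 0.49). Mpo had 13.7 CPM in NPYtet replicate 5 and at most 1.92 CPM elsewhere. Without the 3 libraries that stood apart it was at 0.03 (SE 0.77), and 0 of 11 were called by genotype. In that fit Fpr1 at 2.54 (SE 0.60), Trem1 at 2.67 (SE 0.76), Ltf at 3.15 (SE 0.95) and Mmp8 at 1.46 (SE 0.62) had an unadjusted p under 0.05. NPYtet replicate 2 was the highest library for Fpr1, Trem1 and Mmp8. The part of neutrophils in the S100a8 and S100a9 levels was not tested.

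**Figure D4:**
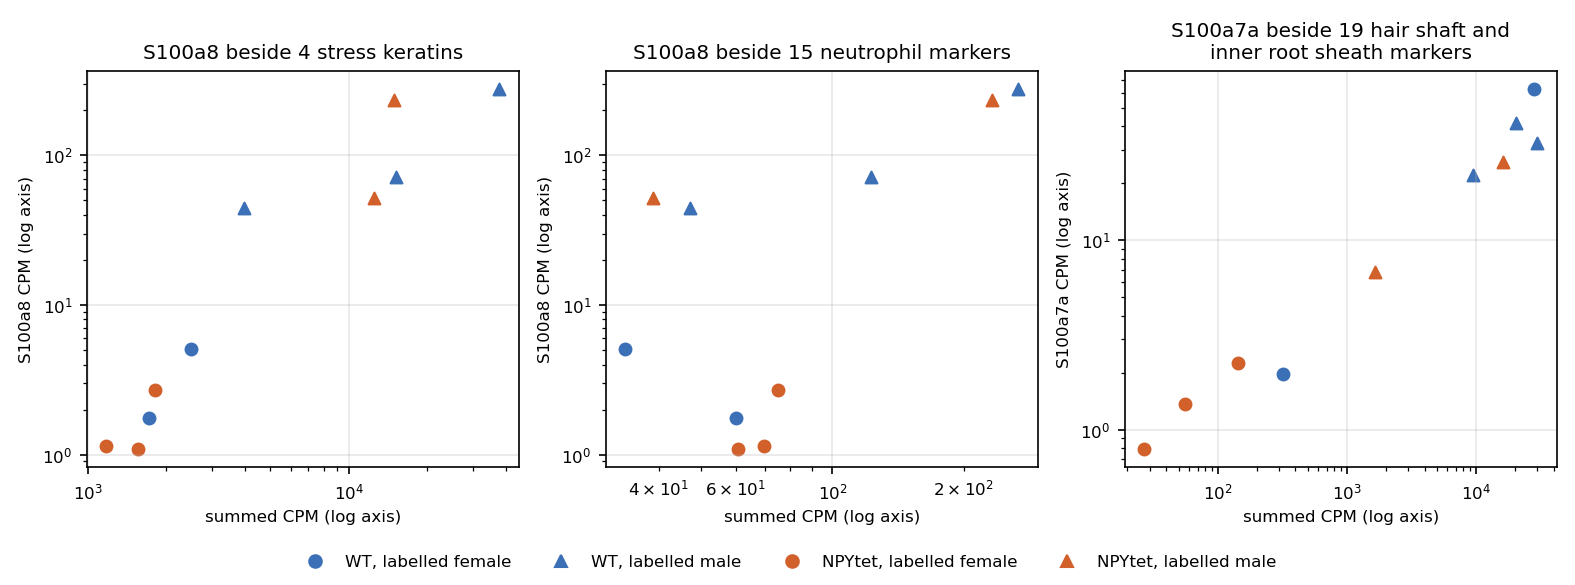
CPM of S100a8 against the summed CPM of 4 stress keratins (left) and of 15 neutrophil markers (middle), and CPM of S100a7a against the summed CPM of 19 hair shaft and inner root sheath markers (right), all on log axes, 1 point per library. The libraries labelled male lie apart from those labelled female in the left panel but not along the x axis of the middle one, and the right panel orders libraries of both genotypes along 1 band. Mmp9 makes up the largest part of the neutrophil sum in every library.

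Other markers of skin were read the same way. By sex label 1 of 7 basal keratinocyte markers was called, Krt14 at 2.79 (SE 0.54), and 0 of 10 suprabasal markers in edgeR, with 1 at an unadjusted p under 0.05. Of 10 macrophage markers 1 was called, Cd163 at -1.68 (SE 0.39), lower in mice labelled male, and without the 3 libraries that stood apart it was not (-1.36, edgeR adjusted p = 0.0877). Of 8 adipocyte and 8 muscle markers none was called in either contrast in edgeR, though without the 3 libraries that stood apart the muscle gene Myh4 was called lower in mice labelled male (-1.80, edgeR adjusted p = 0.0245). At an unadjusted p under 0.05 there were 3 adipocyte and 0 muscle markers by genotype, and 1 of each by sex label. Over all genes the shares were 3.59% by genotype and 24.6% by sex label. All 8 adipocyte markers were positive by genotype (median log2 fold change 0.77), with the smallest p for Retn at 1.34 (SE 0.40), Fabp4 at 1.03 (SE 0.46) and Pparg at 0.74 (SE 0.34). Without the 3 libraries that stood apart all 8 were again positive by genotype (median 0.86), with 0 called. In that fit Retn, Plin1, Lep, Adipoq, Cidec and Pparg had an unadjusted p under 0.05. Fabp4 at 0.58 (SE 0.33) and Cfd at 0.45 (SE 0.33) did not. No marker of any list was called by genotype in edgeR.

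S100a7a varied with markers of the growing hair follicle. The 19 hair shaft and inner root sheath markers summed to 28125, 29929, 318, 20568 and 9560 CPM in WT replicates 1 to 5 and to 27.1, 1665, 143, 56.0 and 16266 CPM in NPYtet replicates 1 to 5. WT replicate 3 was low and NPYtet replicate 5 high in both this sum and S100a7a. All 19 had negative fold changes by genotype (median -4.26), and 0 were called in edgeR, with 5 at an unadjusted p under 0.05. Msx2, Lef1 and Hoxc13, transcription factors of the hair matrix, had the smallest p at -2.61 (SE 0.62), -3.13 (SE 0.73) and -2.20 (SE 0.58). Without the 3 libraries that stood apart all 19 were again negative by genotype (median -5.40), with 0 called. By sex label all 19 were positive (median 4.01), with 0 called in edgeR and 0 at an unadjusted p under 0.05. Over all genes 48.8% were positive by genotype and 46.2% by sex label. The part of hair growth in the S100a7a values was not tested.

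For each tested gene the 3 others with the most similar profile were taken by Pearson correlation of log2 CPM over the 10 libraries, among 15144 genes with a mean of at least 1 CPM. These values describe likeness in libraries that share depth, handling and the division described above, and carry no test. S100a7a was most like the hair keratin Krt82 (r = 0.995), trichohyalin Tchh (0.992) and Capn8 (0.991). S100a8 was most like the metallothionein Mt1 (0.989), Gm5416 (0.981) and the gap junction gene Gjb1 (0.979), and S100a9 like Gm18445 (0.986), Gm4610 (0.985) and the neutrophil chemokine Cxcl2 (0.977). Lcn2 was most like the monocyte chemokine Ccl2 (0.981), Akr1b8 (0.979) and the C-type lectin Clec4n (0.971). For Slpi they were Slc10a6 (0.981), the cornified envelope gene Lce3f (0.977) and Bcl3 (0.976), and for Defb3 they were Fpr2 (0.967), Mt1 (0.964) and Gm14328 (0.959). Defb6 was the exception in kind, next to the respiratory chain genes Ndufa2 (0.989) and Ndufb11 (0.987) and the ribosomal protein gene Rpl10 (0.987), and its highest library was the one with the largest share of mitochondrial reads.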

How the data were processed

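For each of 10 whole skin libraries the authors deposited raw read counts, whole numbers listed by Ensembl gene ID. The tools named, per the submitters' processing notes, were STAR 2.5.2, Trimmomatic 0.36, FastQC 0.11.8, bcl2fastq and DESeq2 1.30.1, with mm10 as the genome build. Per the labels' protocols, libraries were directional, paired-end and made from poly(A) RNA of integrity number 7.0 or above. The sources used here give neither the strand setting of the counts nor the release of the annotation.

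Symbols came from GENCODE M21 (49412 of 49671 IDs matched; the others held 0.0189% of reads). Counts were fitted in R 4.3.3 with edgeR 4.0.16 (TMM scaling, filterByExpr at min.count 10 and min.total.count 15, robust quasi-likelihood test, terms for sex label and genotype, Benjamini-Hochberg adjustment over 18060 genes, threshold 0.05). A model of the 4 genotype and sex combinations gave differences within sexes and their difference. P-values measure the spread between these mice. No pair of libraries of the same genotype agreed within sampling noise (chi-square). The test was also run on simulated counts. These held no library that stood apart and no wrong sex label, so that run does not cover such cases. Promoter windows are from RefSeq.

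The genes and the lists of other genes were chosen with earlier results of these data known. Besides the 10 genes and Npy, genes were named if called over all genes or if among the 3 smallest genotype p-values of a list. Both rules were read with and without the 3 libraries that stood apart. Genes among the 3 most alike profiles were named as well, and some genes that meet the list rule are not printed. Il17a, Il17f, Il22, Ly6g, Ngp, Adipoq, Cidec and Cfd fall outside it and were named after their values were seen. Alternatives were DESeq2 1.42.0, other scaling and filters, terms left out, a replicate block and libraries left out.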

Additional observations from a re-analysis of the deposited data

Results flagged for a closer look

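In 11 cases the highest library of a genotype stood apart from the other 4, with a gap to its nearest neighbour above 0.71 of the range of the 5 CPM values. For 5 draws from 1 normal distribution chance gives this in about 1 of 20 groups. That rate does not carry over here, because the CPM were not on a log scale and each genotype mixes both sex labels. The 10 genes are also not independent of each other. NPYtet replicate 2 was such a library for 6 genes, at 0.78 of the range for S100a8, 0.876 for S100a9, 0.939 for Lcn2, 0.943 for Slpi, 0.719 for Defb4 and 0.786 for Wfdc12. WT replicate 2 was so for S100a8 (0.746), Defb3 (0.732) and Defb4 (0.901). NPYtet replicate 5 was so for S100a7a (0.759) and Defb6 (0.93).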

How the results depend on the processing

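In the fits in which each could be tested, none of the 10 genes was called by genotype apart from S100a7a without a filter on low counts (-2.73, edgeR adjusted p = 6.07e-09). That fit, the 1 alternative with values for Camp and Defb4, called 409 genes by genotype and 2380 by sex label, and by sex label 9 of the 10, all but Camp. DESeq2 called 35 and 2316 genes. Leaving out the 3 libraries that stood apart gave 0 and 949, with Npy at 7.45 (edgeR adjusted p = 0.133). By sex label 217 genes were called with library totals only, a scaling that moved the median of all genes from -0.07 to -0.46, 765 with no genotype term, and 0 with a replicate block. In the block, where the sex label rests on a single pair of mice, S100a8 was at 4.71 and S100a9 at 5.28 (edgeR adjusted p = 0.124 and 0.112), Lcn2 at 1.34, Slpi at 2.28 and Defb3 at 8.33. Same-numbered mice correlated at -0.256 to 0.644 in their deviations, not all above 0.1, so the numbers do not pair them. With each library left out in turn, genes called numbered 1 to 8 by genotype (8 without WT replicate 3), 58 to 2725 by sex label (58 without WT replicate 3, 2725 without WT replicate 4) and 0 to 108 for the difference between sexes (108 without WT replicate 3). Over the same fits the S100a9 share difference was -3.697 to 8.923 percentage points. The genotype fold change changed sign in these fits for S100a8 (-1.165 to 0.04458), S100a9 (-0.8399 to 0.661), Lcn2 (-0.02672 to 1.142), Defb6 (-0.1933 to 1.228) and Wfdc12 (-0.1015 to 0.3383). It also did for S100a9 with no sex term (-0.21) and with the replicate block (-0.12), for Slpi with no sex term (-0.20), and without the 3 libraries for S100a8 (0.11), Defb6 (-0.24) and Wfdc12 (0.17). Lcn2 lost its call by sex label with library totals only (2.64, edgeR adjusted p = 0.0523). The cause was not tested. Camp, with at most 5 reads in any library, is limited by depth, and Defb4 and Wfdc12 had at most 5 and 7 reads in 6 or more libraries.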
